A study of Mus musculus with 19 samples.

Results

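The enzymes that carry reducing equivalents between the cytosol and the mitochondria of muscle were followed through 9 genes: Gpd1 and Gpd2 of the glycerol phosphate shuttle, the malic enzyme genes Me1, Me2 and Me3, and Mdh1, Mdh2, Got1 and Got2 of the malate-aspartate shuttle. Every probe set annotated to just a single gene with one of these symbols was taken, which gave 27 of the 34945 probe sets that carry 1 gene symbol. The samples were extensor digitorum longus (EDL) muscle, a fast-twitch hindlimb muscle, from FVB mice aged 19 weeks, measured on 1-colour Affymetrix arrays with 1 array per sample. There were 10 samples from transgenic HSALR mice of line 20 b and 9 from wild-type mice. HSALR mice express a human skeletal actin transgene with an expanded CTG repeat in their muscle fibres and are used to model myotonic dystrophy. All HSALR samples came from this single line, and a line-specific difference cannot be told apart from one of the repeat. The labels do not say whether the samples came from separate animals, so errors and p-values measure the spread between samples, which may be technical.

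The glycerol phosphate shuttle moves electrons in from the cytosol: the cytosolic dehydrogenase reduces dihydroxyacetone phosphate with NADH, and the flavin-linked dehydrogenase on the outer face of the inner mitochondrial membrane oxidises the glycerol phosphate and passes the electrons to ubiquinone. The malate-aspartate shuttle does this with paired malate dehydrogenases and paired aspartate aminotransferases, 1 of each in the cytosol and 1 in the matrix. Malic enzymes convert malate to pyruvate, and the cytosolic enzyme yields NADPH. Fast glycolytic fibres are known for their high glycerol phosphate dehydrogenase activity.

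The genes were selected on their place in the shuttles with the measured HSALR and wild-type signals of some of them known, namely the lower signals of Gpd1 and of a probe set of Mdh2 in HSALR. Differences of these 9 genes between HSALR and wild type are therefore given as a description, with standard errors (SE) and without p-values. A probe set is said to have fallen or risen where it passed a false discovery rate of 0.05 in a limma fit over all 22519 probe sets tested, which were those whose mean log2 signal reached the median of all probe sets. Log2 folds are HSALR minus wild type of log2(signal + 16), a scale that understates the change of dim probe sets. Of the 27 probe sets, 20 were tested and 7 were too dim. Of the 20, 7 fell and 0 rose. Over all tested probe sets 2.2% fell and 2.86% rose, 5.06% in either direction, and nothing is read from the members' count beside these shares. The 7 belonged to Gpd1 (2 probe sets), Gpd2 (2), Me1 (2) and Mdh2 (1), and no tested probe set of Me2, Me3, Mdh1, Got1 or Got2 passed. The median log2 fold was -0.21 over the 20 tested probe sets and 0.04 over all tested probe sets.

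Among the arrays, median signals ranged from 39.7 to 71.9, and this unequal brightness was kept as deposited. Skeletal muscle markers were bright in both groups, with mean log2 signals for Ckm, the muscle creatine kinase, of 13.6 in HSALR and 13.6 in wild type. This is near the top of the scale, where differences can be compressed. HSALR replicates 9 and 10 were the most alike of all samples, with a Spearman correlation over probe sets of 0.978, where the best match of each remaining sample lay at 0.953 to 0.969. All 7 probe sets also fell without these 2 samples, with log2 folds of -0.38 to -1.11. The 3'/5' signal ratio of control probe sets for actin and Gapdh, a sign of RNA quality, averaged -0.11 ± 0.04 on the log2 scale in the 10 HSALR samples and -0.06 ± 0.05 in the 9 wild-type samples (SD). With this ratio as a covariate the 7 log2 folds were -0.36 to -1.09, and all 7 passed. In whole muscle, fewer cells of a type and less RNA per cell cannot be told apart.

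**Figure D1:**
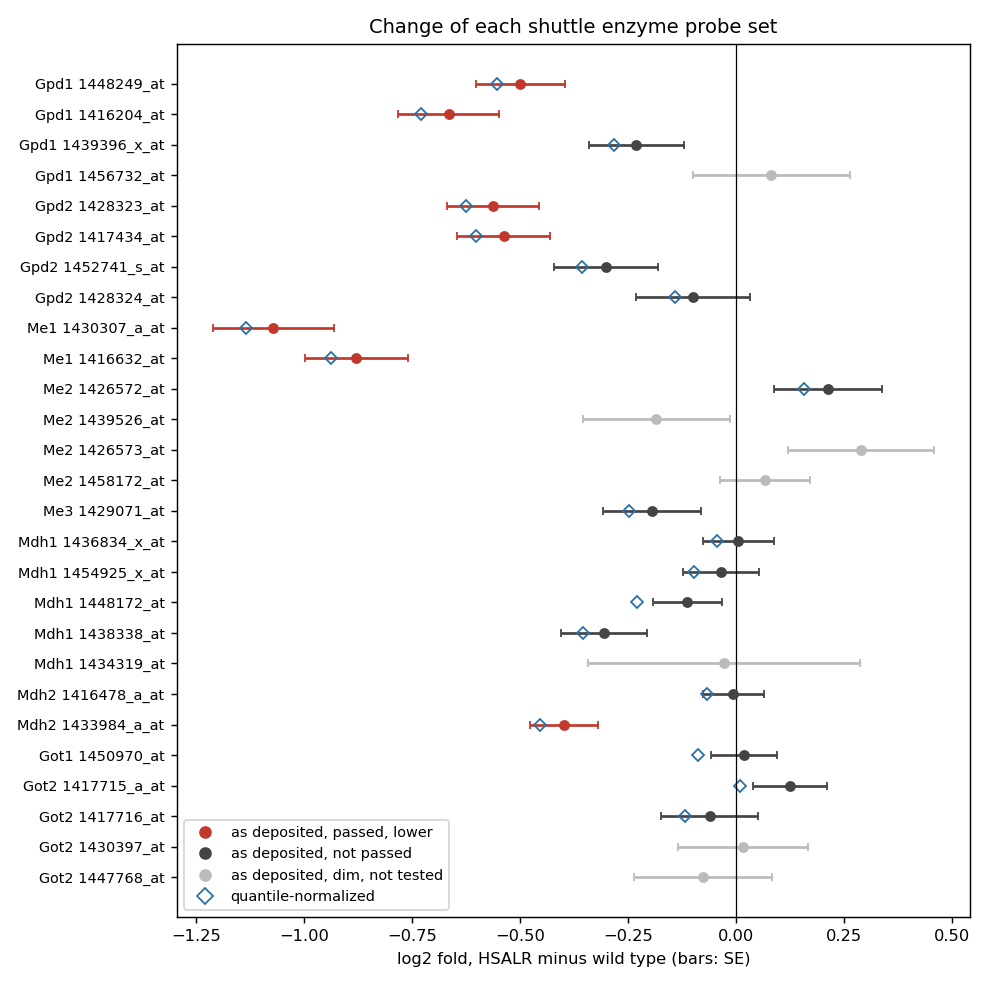
Log2 fold of each of the 27 probe sets, HSALR minus wild type, with bars of 1 SE (10 HSALR and 9 wild-type samples). Filled points are the deposited scale, red where the probe set fell, dark where it did not pass and light where it was too dim to be tested, and open diamonds are quantile-normalized values. The 2 Me1 probe sets lie farthest left, at -1.07 and -0.88.

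Me1, the cytosolic NADP-dependent malic enzyme, had the largest difference of the 9 genes. At probe set 1430307_a_at its signal was 436 to 1041 in HSALR samples, with a median of 736, against 1116 to 1875 in wild-type samples, with a median of 1627. Every HSALR sample lay below every wild-type sample. The log2 fold was -1.07 ± 0.14 (SE), a fall of 2.10-fold. At probe set 1416632_at the signal was 229 to 468 in HSALR samples (median 350) and 471 to 811 in wild-type samples (median 649). The groups again did not overlap, although HSALR replicate 6, at 468, and wild-type replicate 5, at 471, nearly met, and the log2 fold was -0.88 ± 0.12 (SE). HSALR replicate 1 was the lowest sample at both probe sets.

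Among the 20 tested probe sets, 4 had all 10 HSALR samples below all 9 wild-type samples, against 0.289% of all tested probe sets, and 0 had all HSALR samples above, against 0.36%. They were both of Me1 and single probe sets of Gpd1 and Mdh2. After quantile normalization 6 were separated in this way (background 1.03%): those at Gpd1 1448249_at and at Gpd2 1428323_at and 1417434_at were added, and Me1 1416632_at had 9 of 10 HSALR samples below. The genes were selected with the lower signals of Gpd1 and of a probe set of Mdh2 known. Nothing is read from these counts beside the background shares.

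The promoters of Me1 and Gpd2, genes with 2 fallen probe sets each, are given from 250 bases before to 50 bases after the annotated start. Both genes are known from rat liver as targets of thyroid hormone, and Me1 is a known target of the oxidative stress factor NRF2. The sequences are those of RefSeq (GRCm38.p6), in which 7 of the 9 genes were matched, Gpd1 and Me2 being the others. Capitals mark matches on either strand to AGGTCA and GGGTCA, half-sites of nuclear receptors, to TGACNNNGC, the core of the antioxidant response element, and to CCAAT. No search motif overlapped another in these windows.
Me1, chr9:86695865-86696164, minus strand: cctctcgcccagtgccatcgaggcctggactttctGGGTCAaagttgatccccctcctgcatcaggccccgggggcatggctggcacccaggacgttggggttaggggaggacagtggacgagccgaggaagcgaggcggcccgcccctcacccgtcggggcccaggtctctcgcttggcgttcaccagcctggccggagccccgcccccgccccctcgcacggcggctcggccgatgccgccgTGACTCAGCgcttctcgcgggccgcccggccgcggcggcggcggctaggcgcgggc
Gpd2, chr2:57237428-57237727, plus strand: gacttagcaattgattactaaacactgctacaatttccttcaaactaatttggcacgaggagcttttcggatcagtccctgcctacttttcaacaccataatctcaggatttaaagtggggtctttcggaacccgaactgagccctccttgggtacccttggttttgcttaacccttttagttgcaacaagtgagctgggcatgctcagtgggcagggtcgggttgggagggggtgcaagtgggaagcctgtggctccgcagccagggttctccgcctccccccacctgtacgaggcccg
The Me1 window held GGGTCA at positions -215 to -210 and TGACNNNGC at -6 to 3, counted from the first transcribed base as 1 with no base 0. Of 32851 promoters of this length, 13.7% held GGGTCA and 12.4% held TGACNNNGC. Either of the nuclear receptor half-sites searched, AGGTCA or GGGTCA, was found in 27.5%. The Gpd2 window held none of the 4 motifs, of which AGGTCA was found in 16.3% and CCAAT in 37.4% of promoters. These matches describe the letters of the windows and are not evidence of binding. The Me1 window was richer in G and C, at 74.7%, than that of Gpd2, at 53.0%.

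**Figure D2:**
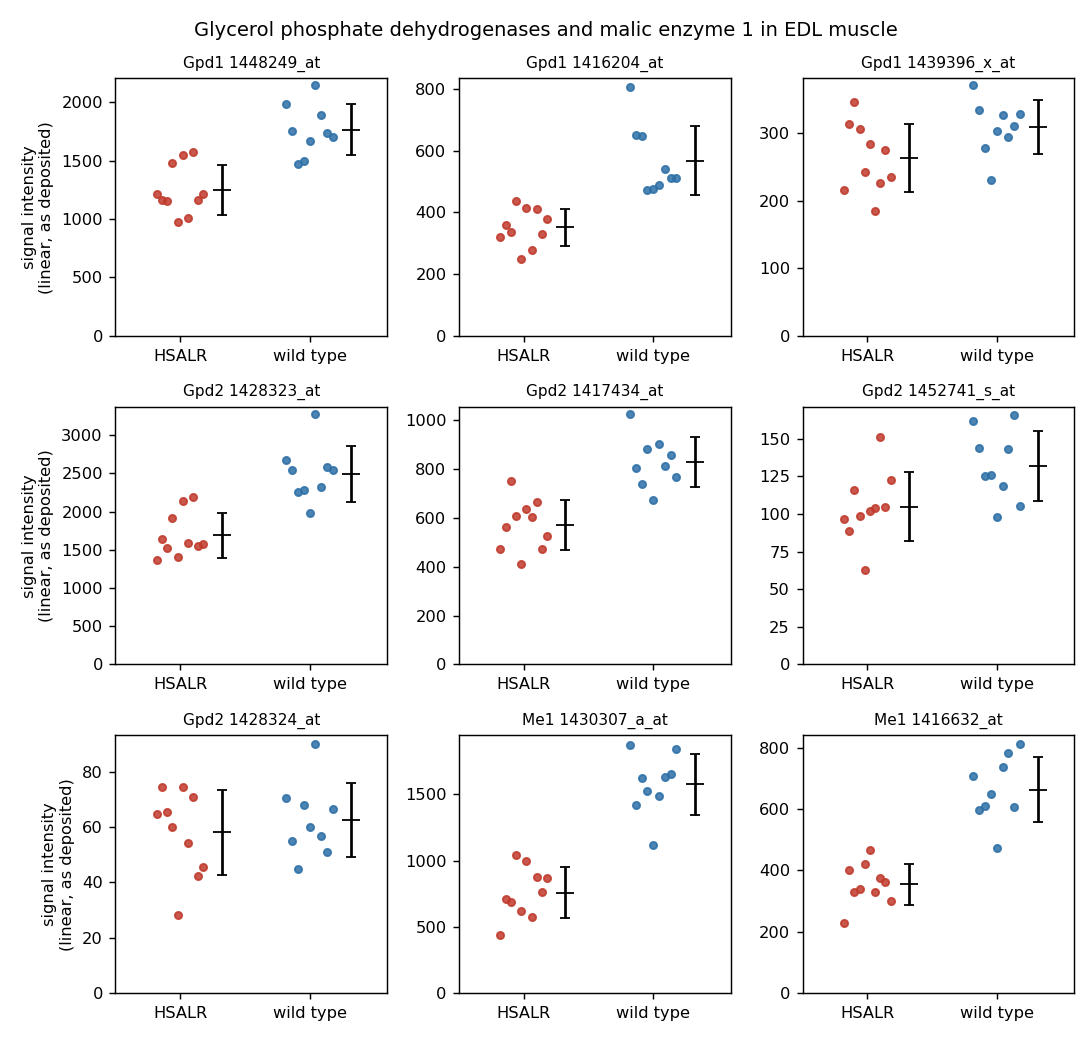
Signal of each tested probe set of Gpd1, Gpd2 and Me1 in every sample (linear intensity as deposited), HSALR on the left and wild type on the right of each panel. Bars give the mean and SD (n = 10 and 9). All 10 HSALR samples lie below all wild-type samples in Me1 1430307_a_at, Me1 1416632_at and Gpd1 1416204_at.

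Gpd1, the cytosolic glycerol phosphate dehydrogenase, fell at its 2 brightest probe sets. At 1448249_at, the brightest, the signal was 970 to 1575 in HSALR samples (median 1187) and 1474 to 2143 in wild-type samples (median 1738). Of the HSALR samples 7 of 10 lay below all wild-type samples, while HSALR replicates 4, 6 and 8, at 1479, 1549 and 1575, reached into the wild-type range. The log2 fold was -0.50 ± 0.10 (SE), or 1.41-fold lower. At 1416204_at the signal was 250 to 436 in HSALR samples (median 349), against 472 to 806 in wild-type samples (median 513), with no overlap and a log2 fold of -0.66 ± 0.12 (SE). At 1439396_x_at, an identifier with the suffix that Affymetrix gives to probe sets with possible cross-hybridisation, the groups overlapped widely (185 to 345 in HSALR, 230 to 371 in wild type), and the log2 fold of -0.23 ± 0.11 (SE) did not pass. The remaining probe set, 1456732_at, had signals of 1.25 to 24.8 in HSALR and 1.08 to 15.7 in wild type and was not tested.

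Gpd2, the mitochondrial glycerol phosphate dehydrogenase, also fell at its 2 brightest probe sets. At 1428323_at the signal was 1366 to 2189 in HSALR samples (median 1577) and 1977 to 3275 in wild-type samples (median 2540). HSALR replicates 6 and 8 lay inside the wild-type range and the other 8 below it, and the log2 fold was -0.56 ± 0.11 (SE), or 1.48-fold lower. At 1417434_at the signal was 409 to 752 in HSALR samples (median 583), against 675 to 1023 in wild-type samples (median 812). Only HSALR replicate 3, at 752, lay above the lowest wild-type sample, and the log2 fold was -0.54 ± 0.11 (SE). The 2 dimmer probe sets did not pass. 1452741_s_at had a log2 fold of -0.30 ± 0.12 (SE), and passed under quantile normalization (-0.36) and under median centring of the arrays (-0.35). 1428324_at, with medians of 62.4 in HSALR and 60.0 in wild type, had -0.10 ± 0.13 (SE).

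Within each group, the brightest probe sets of Gpd1 and Gpd2 were set against each other after quantile normalization, which does not use the difference between the groups. In HSALR the Pearson correlation was 0.83 (permutation p = 0.00446, adjusted p = 0.082 over 50 relations, n = 10) and the Spearman correlation 0.84 (permutation p = 0.00365, adjusted p = 0.182), all 2-sided. It was 0.94 without the 2 samples farthest from the Gpd1 median, and 0.65 without HSALR replicates 9 and 10, the 2 samples lowest in both genes on this scale. The 9 wild-type samples gave a Pearson correlation of 0.58 (exact permutation p = 0.0986, adjusted p = 0.548) and a Spearman correlation of 0.53 (exact permutation p = 0.148, adjusted p = 0.67). The first dropped to 0.19 without the 2 farthest samples. Neither group's relation passed the correction on this scale. Under median centring the Pearson correlation was 0.87 in HSALR and 0.74 in wild type, and on the deposited scale 0.86 and 0.74. Gpd1 and Me1 had a Pearson correlation of 0.32 in HSALR (permutation adjusted p = 0.761, n = 10) and -0.21 in wild type (exact permutation adjusted p = 0.864, n = 9). On the deposited scale the HSALR value was 0.68. HSALR replicate 1, the lowest sample for Me1, was second only to replicate 4 for Gpd1 within its group on the quantile-normalized scale.

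**Figure D3:**
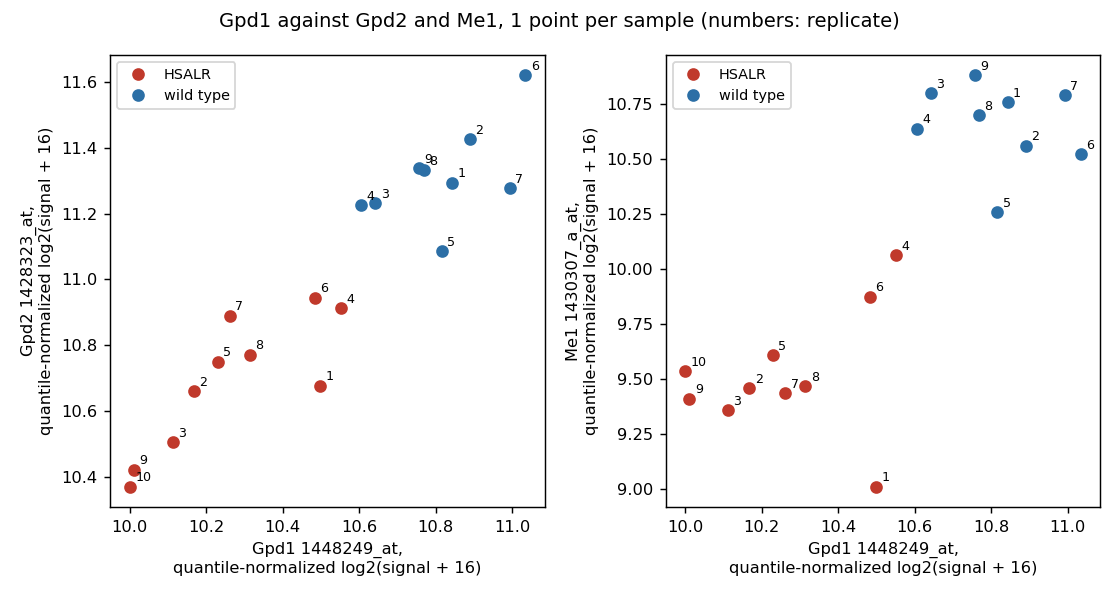
Quantile-normalized log2 signal of Gpd1 (1448249_at, horizontal axes) against Gpd2 (1428323_at, left) and Me1 (1430307_a_at, right), 1 point per sample, with the replicate number beside it. The HSALR points lie below and to the left of the wild-type points in both panels. Within HSALR, Gpd1 and Gpd2 had a Pearson correlation of 0.83 (n = 10).

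No tested probe set of the other malic enzymes passed. Me3, a mitochondrial NADP-dependent malic enzyme, had signals of 614 to 1273 in HSALR (median 855) and 868 to 1085 in wild type (median 1023), with a log2 fold of -0.19 ± 0.11 (SE) that did not pass. HSALR samples spread more widely here, with an SD of 197 against 76.7 in wild type. Me2, the mitochondrial malic enzyme that uses NAD, was dim. Its only tested probe set, 1426572_at, had 47.7 to 106 in HSALR (median 76.6) and 45.8 to 73.7 in wild type (median 60.2). The log2 fold was 0.21 ± 0.12 (SE) and did not pass, and HSALR replicate 10 was the highest sample. Its 3 other probe sets were too dim to be tested, with log2 differences of -0.18 ± 0.17, 0.29 ± 0.17 and 0.07 ± 0.10 (SE).

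In the malate-aspartate shuttle the cytosolic enzymes were bright and did not pass. Mdh1, cytosolic malate dehydrogenase, had 3 bright probe sets, and their log2 folds were 0.01 ± 0.08 at 1436834_x_at, -0.03 ± 0.09 at 1454925_x_at and -0.11 ± 0.08 at 1448172_at (SE). Both 1436834_x_at, which stood for Mdh1 in the correlations between genes, and 1454925_x_at carry the suffix for possible cross-hybridisation. At the first the signal was 8083 to 11358 in HSALR (median 9560) and 7826 to 10665 in wild type (median 9722), with groups that overlapped almost completely. The sign of the first turned under quantile normalization (-0.04) and under median centring of the arrays (-0.04), and 1448172_at passed after quantile normalization as lower (-0.23). A dim probe set of Mdh1, 1438338_at, had 63.1 to 115 in HSALR (median 92.7) and 101 to 132 in wild type (median 119). Of its HSALR samples 7 of 10 lay below all wild-type samples, and its log2 fold of -0.31 ± 0.10 (SE) passed after quantile normalization (-0.35), under median centring (-0.35) and with array weights (-0.27). The last, 1434319_at, was not tested (log2 difference -0.03 ± 0.31, SE).

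Got1, cytosolic aspartate aminotransferase, had a signal of 4594 to 6480 in HSALR (median 5485) and 4685 to 5793 in wild type (median 5445). The log2 fold of 0.02 ± 0.08 (SE) did not pass, and its sign turned under quantile normalization (-0.09) and under median centring (-0.03). Got2, the mitochondrial aminotransferase, had 5246 to 7406 in HSALR (median 6800) and 5285 to 6549 in wild type (median 5744) at 1417715_a_at. On the deposited scale the HSALR samples stood in 2 sets there: 6 samples at 6791 or more lay above every wild-type sample, while replicates 1, 7, 9 and 10 lay between 5246 and 5562. The log2 fold was 0.13 ± 0.09 (SE) and did not pass, and it was 0.01 after quantile normalization. On that scale the 2 sets changed: replicates 1 and 7 (log2 signals 12.60 and 12.60) lay beside replicate 8 (12.59). Replicates 9 and 10 (12.24 and 12.21) stayed apart, below every wild-type sample (lowest 12.44), and 4 of 10 HSALR samples were above every wild-type sample. Its second tested probe set, 1417716_at, had -0.06 ± 0.11 (SE), and the other 2 were too dim to be tested.

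Mdh2, the malate dehydrogenase of the mitochondrial matrix, gave different answers at its 2 probe sets. At 1416478_a_at the signal was 8642 to 10262 in HSALR (median 9106) and 8290 to 10494 in wild type (median 9162), with a log2 fold of -0.01 ± 0.07 (SE) that did not pass. At 1433984_a_at it was 7038 to 8858 in HSALR (median 7666), against 9219 to 12356 in wild type (median 10195), with no overlap and a log2 fold of -0.40 ± 0.08 (SE). The suffix of both marks probe sets that read several transcripts of a gene. Within groups, where the difference between genotypes plays no part, the pair had a Pearson correlation of 0.66 in HSALR (permutation p adjusted over 36 such relations = 0.198, n = 10), which was 0.20 without the 2 farthest samples. In wild type it was -0.003 (exact permutation adjusted p = 0.995, n = 9). Signals of Mdh1 and Mdh2 came near the highest of each array (13979 to 17163), where differences can be compressed, so that a small fold there does not show that the RNA was unchanged.

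**Figure D4:**
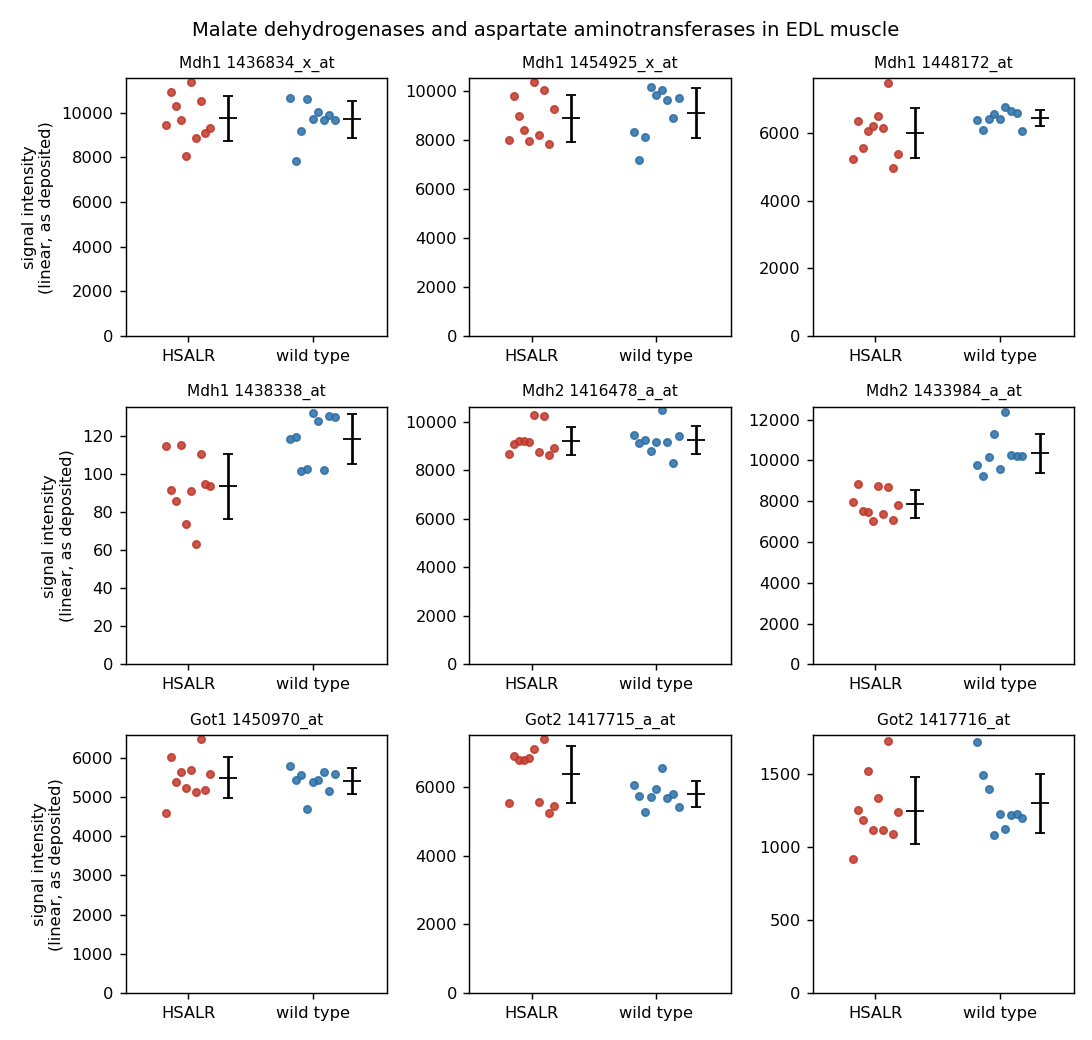
Signal of each tested probe set of Mdh1, Mdh2, Got1 and Got2 in every sample (linear intensity as deposited), HSALR on the left and wild type on the right of each panel, with the mean and SD (n = 10 and 9). Only Mdh2 1433984_a_at has all HSALR samples (7038 to 8858) below all wild-type samples (9219 to 12356).

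The agreement of probe sets of a gene within groups was looked at in 36 relations, 18 in each group, a choice made after the values were seen. In HSALR the 2 fallen probe sets of Gpd1 had a Pearson correlation of 0.89 (permutation adjusted p = 0.00468, n = 10), a Spearman correlation of 0.89 and 0.87 without the 2 farthest samples. It was the only one of the 36 to pass. In wild type the same pair had a Pearson correlation of -0.04 (exact permutation adjusted p = 0.97, n = 9). The 2 Me1 probe sets had 0.46 in HSALR (permutation adjusted p = 0.446, n = 10) and 0.70 in wild type (exact permutation adjusted p = 0.198, n = 9), with 0.15 without the 2 farthest samples in wild type. The 2 fallen probe sets of Gpd2 had 0.60 in HSALR (permutation adjusted p = 0.269, n = 10) and 0.49 in wild type (exact permutation adjusted p = 0.446, n = 9). Without the 2 farthest samples the Gpd2 values were 0.02 in HSALR and -0.28 in wild type.

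The within-group SD (log2, quantile-normalized) was 0.09 to 0.15 over 6 bright probe sets, the tested ones of Mdh2 and Got1 and the 3 bright ones of Mdh1, against a median of 0.23 over all tested probe sets. Got2 1417715_a_at, of like brightness, had 0.154. A low SD near the top of the scale, where differences can be compressed, does not show that the RNA varied less between samples. The SDs of the brightest probe sets of Gpd1, Gpd2 and Me1 were 0.18, 0.18 and 0.25.

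Genes whose samples deviated from their group means most like those of a shuttle gene were named by Pearson correlation over the 19 samples (quantile-normalized, 1 probe set for each of 11533 genes), as a description. For Gpd1 these were Eya1 (0.86), a transcriptional cofactor of fast muscle fibres, Ccdc71 (0.84), Tigar (0.82), a phosphatase that lowers glycolytic flux, Gm17546 (0.81) and 4930448F12Rik (0.80). For Me1 they were Zfp652 (0.87), Nrd1 (0.86) and Mzt1 (0.85), and for Mdh1 Scp2 (0.85), a lipid transfer protein, Rheb (0.81), a GTPase that activates mTORC1, and Rdx (0.79), radixin. None of these 11 passed between HSALR and wild type in limma.

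Genes around the shuttles were read from lists chosen with earlier results of these data known, each gene through its brightest tested probe set. Adjusted p-values printed for genes of these lists and of the cell type marker lists are those over all tested probe sets, and they are not independent evidence. Among 7 measured genes of glycerol phosphate handling, 0 rose and 0 fell in limma (median log2 fold -0.06), and Gpd1l, a close relative of Gpd1, had a log2 fold of 0.0004 ± 0.10 (SE). Of 5 tested carriers for malate, aspartate, glutamate and citrate, Slc25a10, the mitochondrial dicarboxylate carrier, rose (log2 fold 0.42 ± 0.11 (SE), limma adjusted p = 0.0268). Its call was lost without HSALR replicates 9 and 10, when 0 of the 5 rose. The carriers of the malate-aspartate shuttle, Slc25a11 for oxoglutarate and malate and Slc25a12 for aspartate and glutamate, had log2 folds of -0.12 ± 0.09 and 0.05 ± 0.09 (SE) and did not pass.

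Of 12 genes that supply or use NADPH for fatty acid synthesis, 1 rose and 0 fell. It was Thrsp, a lipogenic protein of fat and liver that responds to thyroid hormone (log2 fold 0.52 ± 0.09 (SE), limma adjusted p = 0.00155). Idh1 and Pgd, other sources of cytosolic NADPH, had log2 folds of 0.24 ± 0.11 and 0.23 ± 0.13 (SE), and Fasn, fatty acid synthase, had 0.02 ± 0.18 (SE), none of which passed. None of 11 genes of lactate and pyruvate, of 15 other genes of the tricarboxylic acid cycle or of 8 of glycolysis passed in limma, with median log2 folds of -0.01, 0.005 and 0.02. Some of these genes were near the top of the scale, where differences can be compressed. Mean log2 signals in HSALR were 13.8 for Aldoa, 13.4 for Ldha and 13.2 for Cs, 1 from each list. Ldha and Ldhb, the lactate dehydrogenase subunits, had -0.05 ± 0.07 and -0.25 ± 0.11 (SE). After quantile normalization, where 8.37% of all tested probe sets were lower and 6.47% higher, 1 gene was lower in each of 5 of these lists: Lpin1, Slc25a22, Slc16a3, Ogdh and Pkm. In that setting 10 of the 20 shuttle probe sets were lower and 0 higher.

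Gpd1 and Me1 are also highly expressed in fat cells, and 2 of 3 tested markers of fat cells rose. Of 8 markers 6 had a probe set of their own. Adipoq, adiponectin (log2 fold 1.58 ± 0.41 (SE), limma adjusted p = 0.0237), and Retn, resistin (0.69 ± 0.16 (SE), limma adjusted p = 0.0146), rose, Fabp4 did not pass (0.21 ± 0.09, SE), and Lep, Cidec and Pck1 were too dim to be tested. The summed signal of the 6 was 5270 to 9026 in HSALR and 5630 to 7084 in wild type. Most of this sum was Fabp4, with mean log2 signals of 12.8 in HSALR and 12.6 in wild type. Those of Adipoq were 7.93 and 6.35. Among slow fibre markers 0 of 8 passed (median log2 fold -0.60), and their summed signal ranged from 3033 to 17670 in HSALR and from 2894 to 32521 in wild type. Of 10 fast fibre markers 0 passed, against 2 lower after quantile normalization (Atp2a1 and Actn3), with sums of 111934 to 136343 in HSALR and 120699 to 135476 in wild type. These 10 were near the top of the scale, with mean log2 signals in HSALR from 13.1 (Actn3) to 13.9 (Tnnt3). Differences can be compressed there, so small folds do not show that their RNA was unchanged.

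Macrophage markers rose in 2 of 12 tested (Cd68 and Lgals3), with sums of 4239 to 27691 in HSALR and 4867 to 8191 in wild type, and the 2 highest were HSALR replicates 9 and 10. All 12 had a log2 fold above 0 (median 0.66), 4 were higher after quantile normalization, and 2 of 12 were higher without HSALR replicates 9 and 10. In the fibroblast list 1 of 9 rose, Pdgfra, and 0 of 9 without HSALR replicates 9 and 10 (sums 17377 to 62137 in HSALR, 20517 to 34071 in wild type), and of 5 endothelial markers 0 passed (1857 to 3083 in HSALR, 1973 to 2999 in wild type). The part of these cell types in the shuttle results was not tested, beyond the fits without HSALR replicates 9 and 10.

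Within groups, the brightest tested probe set of each of the 9 genes was also set against the means of the slow fibre and fat cell markers. The fat cell mean was over the 3 tested markers, Adipoq, Retn and Fabp4. In HSALR Adipoq varied most of these, with a log2 SD of 1.31 on the deposited scale, against 0.37 for Retn and 0.23 for Fabp4. On the quantile-normalized scale none of the 50 relations, which include 7 pairs of shuttle genes in each group, passed after adjustment by either correlation. By Pearson correlation 7 had an unadjusted permutation p under 0.05. Besides Gpd1 with Gpd2 and those given below, they were Mdh2 with the fat cell markers in wild type (0.72) and the following in HSALR. Got1 with Got2 had 0.81, Mdh2 with the slow fibre markers 0.72 and Me3 with the fat cell markers -0.69. Without HSALR replicates 9 and 10 these HSALR values were 0.39, 0.40 and -0.79. Me1 and the fat cell markers had a Pearson correlation of -0.74 in HSALR (permutation p = 0.00829, adjusted p = 0.104, n = 10) and a Spearman correlation of -0.76 (permutation p = 0.0143, adjusted p = 0.358). It was -0.44 without the 2 samples farthest from the median of the markers, -0.32 on the deposited scale, -0.59 under median centring and -0.80 without HSALR replicates 9 and 10. The wild-type value was -0.41 (exact permutation p = 0.278, adjusted p = 0.696, n = 9). Gpd1 and the slow fibre markers had a Pearson correlation of 0.30 in HSALR (permutation adjusted p = 0.762, n = 10) and -0.17 in wild type (exact permutation adjusted p = 0.864, n = 9). The HSALR value was 0.04 on the deposited scale and turned to -0.31 without HSALR replicates 9 and 10. The brightest probe sets of Mdh2 and Got2 had 0.87 in HSALR (permutation adjusted p = 0.082, n = 10), which dropped to 0.33 without HSALR replicates 9 and 10.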

How the data were processed

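Biotin-labelled RNA was hybridised to 1-colour arrays, per the labels' protocols. The table deposited by the authors holds linear intensity values for 45101 probe sets. Per the submitters' processing notes the software was GCOS 1.4, but no source used here gives its algorithm, scaling target or filters. The number of arrays limits the precision. The deposited scaling was kept. Values were used as log2(value + 16), 64 control probe sets were left out, and the 22519 probe sets with a mean log2 value of at least the median, 6.09, were tested. Symbols came from the platform annotation, matched through the Entrez identifier for 34741 of 34945 probe sets.

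Differences were fitted with limma 3.58.1 (R 4.3.3, lmFit and eBayes) with Benjamini-Hochberg adjustment over all tested probe sets. Dim probe sets took their values from the same fit without a filter. The fit was also tested on simulated data with independent noise for each probe set and sample. Those data lacked the unequal brightness of the arrays, so that test cannot vouch for the calls made here. Correlations used permutation tests, exact over 362880 pairings for 9 samples and 100000 resamples for 10. Their x measure was the list mean, or the first gene of a pair as given here: Gpd1 with Gpd2, Me1 and Mdh1, Mdh1 with Got1 and Mdh2, Mdh2 with Got2, and Got1 with Got2. Named genes were all members, list genes past the threshold, the 5 genes most like Gpd1 and the 3 most like Me1 and Mdh1, and markers a result turns on. The members and lists were chosen with earlier results of these data known. Promoters were RefSeq's (GRCm38.p6).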

Additional observations from a re-analysis of the deposited data

Results flagged for a closer look

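Chance flags about 1 in 20 groups, and 1 of the 54 groups of samples looked at held a sample far from the others. At Mdh1 1436834_x_at, wild-type replicate 2 had a log2 signal of 12.9, and the nearest wild-type sample had 13.2, a gap of 0.523 of the group's whole range, above Dixon's 95% critical value for 9 samples. Its signal was 7826, against 9202 in the nearest sample. Without this sample the log2 fold was -0.03.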

How the results depend on the processing

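The 7 shuttle probe sets that fell did so in all 31 alternatives, and 0 rose in any of them. The number that fell was 10 under quantile normalization, 9 under median centring, 9 with quantile normalization and without HSALR replicates 9 and 10, 8 with array weights and 7 in the others. The largest difference, Me1 1430307_a_at, ranged from -1.13 to -0.96, and that of Gpd1 1448249_at from -0.55 to -0.42.

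Over all tested probe sets, lower and higher counts were 1884 and 1457 under quantile normalization, 1294 and 1051 under median centring, 1308 and 1160 with quantile normalization and without HSALR replicates 9 and 10, and 307 and 409 with the replicate number as a block. Higher counts were 2278 with array weights, 1705 with the 3'/5' covariate and 429 without HSALR replicates 9 and 10. Without 1 sample, higher counts ranged from 467 to 1562 (the highest without HSALR replicate 5) and lower counts from 383 to 670. The cause was not tested. The replicate block left the 7 shuttle calls in place. No pairing of the samples by number was seen, though these values cannot exclude one. Same-numbered samples had correlations of -0.23 to 0.12 in their deviations, and 1 HSALR sample of 9 resembled its own number most.

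Signs turned only in probe sets near 0. Mdh1 1436834_x_at had log2 folds of -0.044 after quantile normalization, -0.042 with centring and -0.0089 with quantile normalization without HSALR replicates 9 and 10, and -0.032 to 0.036 without 1 sample. Got1 1450970_at had -0.087, -0.029 and -0.051 in these settings, -0.012 with the covariate and -0.0080 to 0.047 without 1 sample. Mdh2 1416478_a_at had 0.022 with array weights, 0.011 without HSALR replicates 9 and 10 and -0.025 to 0.017 without 1 sample. Mdh1 1454925_x_at had 0.019 with the covariate. With array weights Gpd2 1428324_at had 0.033 and Got2 1417716_at 0.0086. The relations within groups that passed numbered 3 with centring and 0 in the other settings.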
